A study of Mus musculus with 8 samples.

Results

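The genes described here were 10 members of the BCL2 family, which were Bcl2, Bcl2l1, Mcl1, Bax, Bak1, Bid, Bik, Bcl2l11, Bbc3 and Pmaip1. They were taken by gene symbol from a count table of 55414 Ensembl gene IDs, and each member matched exactly 1 ID. Membership was by name alone, but the gene set was picked with earlier results of these data known. RNA-seq was performed on Paneth cells, the granule-filled cells of the crypt bottom in the small intestine, which release antimicrobial proteins. All mice were wild type, and 4 libraries came from control mice, which received phosphate-buffered saline (PBS), and 4 from mice that received tumor necrosis factor (TNF, a cytokine that signals through a death domain receptor). The small intestine was taken 3 hours after injection in both groups, and the cells were purified on a cell sorter. The sorted mice were of the C57BL/6J strain per the published methods, while dose and age do not appear in the sources used here and the sex of the mice behind each library is not stated. The same methods describe samples from individual mice, but the labels do not say this for these libraries, so the p-values below measure the spread between libraries.

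Proteins of the BCL2 family decide whether the outer membrane of the mitochondrion stays closed during apoptosis. Bcl2, Bcl2l1 (BCL-XL) and Mcl1 are prosurvival proteins that hold the pore-forming effectors Bax and Bak1 in check. Bid, Bik, Bcl2l11 (BIM), Bbc3 (PUMA) and Pmaip1 (NOXA) are BH3-only proteins, which sense death signals and either occupy the prosurvival proteins or activate the effectors. Once open, the membrane releases cytochrome c, which assembles the apoptosome with Apaf1 and Casp9. TNF receptors reach the same point through Casp8, which cleaves Bid. Paneth cells are long-lived for an intestinal epithelial cell. All of this concerns proteins, whereas the values below are of mRNA only.

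The libraries held between 23824717 and 32576077 counts, and 13368 genes passed the filter on low counts. All 10 members passed it. TNF replicate 4 stood apart from the other libraries. Its TMM factor, which rescales a library for its composition, was 0.448, against 0.9952 to 1.357 in the other libraries, and its correlation with the other TNF libraries across genes was at most 0.952, against at least 0.985 among those. Paneth markers were abundant in each library. The summed level of 10 markers was 318550 to 467546 normalized CPM (counts scaled to a common library size after TMM adjustment) in PBS and 393582 to 1236354 in TNF. Normalized CPM are divided by the TMM factor, so a small factor raises all values of its library. The highest sum, in TNF replicate 4, is thus not a share of its counts, and its excess rests in part on the factor of 0.448 of TNF replicate 4. Members whose call or sign rested on this library are given with and without it. The libraries are of bulk RNA, so fewer cells of a type and less RNA per cell cannot be told apart.

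The members are spread over 8 chromosomes of the mouse genome (GRCm39). Upstream sequence is shown for the pair of printable members that carry a p53 decamer, since Bax, Bbc3 and Pmaip1 are textbook targets of the tumor suppressor p53 and one of them fell, one rose and one was not called after TNF. The p53 decamer is the 10-base consensus element of which p53 usually binds a pair. The sequence was read from GRCm39 and is given 5′ to 3′ on the strand of the gene, for the 220 bases that end just before the start of the canonical transcript. Capitals mark the decamer.
Bax: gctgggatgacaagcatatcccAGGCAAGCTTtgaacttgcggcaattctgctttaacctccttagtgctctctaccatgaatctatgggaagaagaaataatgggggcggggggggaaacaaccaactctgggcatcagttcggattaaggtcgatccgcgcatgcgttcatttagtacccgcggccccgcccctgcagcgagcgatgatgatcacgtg
Bbc3: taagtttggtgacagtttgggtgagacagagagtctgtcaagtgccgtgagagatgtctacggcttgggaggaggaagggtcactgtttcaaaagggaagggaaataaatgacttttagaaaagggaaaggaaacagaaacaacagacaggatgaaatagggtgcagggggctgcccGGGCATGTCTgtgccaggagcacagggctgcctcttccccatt
The Bax stretch is chr7:45116326-45116545 on the minus strand, with the decamer at -198 to -189 from the start site. The Bbc3 stretch is chr7:16042451-16042670 on the plus strand, with the decamer at -43 to -34. In the 250 bases upstream of the start, 3 of the 10 members held the decamer (the third was Pmaip1, at -103 to -94), against 6.69% of 21757 protein-coding genes. The kappa-B consensus of NF-kB was in 0 of the 10 windows and in 7.63% of all, and the STAT site TTCNNNGAA was in 0 of the 10 and in 7.70% of all, with both strands searched. No member held 2 of these motifs, so that none overlapped. The members' windows were 49.6% to 74.0% GC, against a median of 53.2% over all genes. A match or its absence describes the letters of this window only.

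Of the 10 members, 5 differed between TNF and PBS at an adjusted p under 0.05 (edgeR's quasi-likelihood test, adjusted over all tested genes by the Benjamini-Hochberg method), which is 50.0% and close to the 43.0% of all tested genes that did. Mcl1, Bak1, Bid and Pmaip1 were higher after TNF (23.3% of all genes were called higher) and Bbc3 was lower (19.6% were called lower). The 5 called members each changed by at least 2-fold, while 18.0% of all tested genes were called with a change of that size. The 4 TNF values of these 5 members did not overlap the 4 PBS values, which held for 42.1% of all genes. By role, 1 of 3 prosurvival genes, 1 of 2 effectors and 2 of 5 BH3-only genes rose and 1 BH3-only gene fell. The median log2 fold change of the members was 0.48, against 0.026 over all tested genes. Without TNF replicate 4 the members' median was 0.25, against -0.022 over all tested genes. With library size as the only scaling it was 0.0025, against -0.38.

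**Figure D1:**
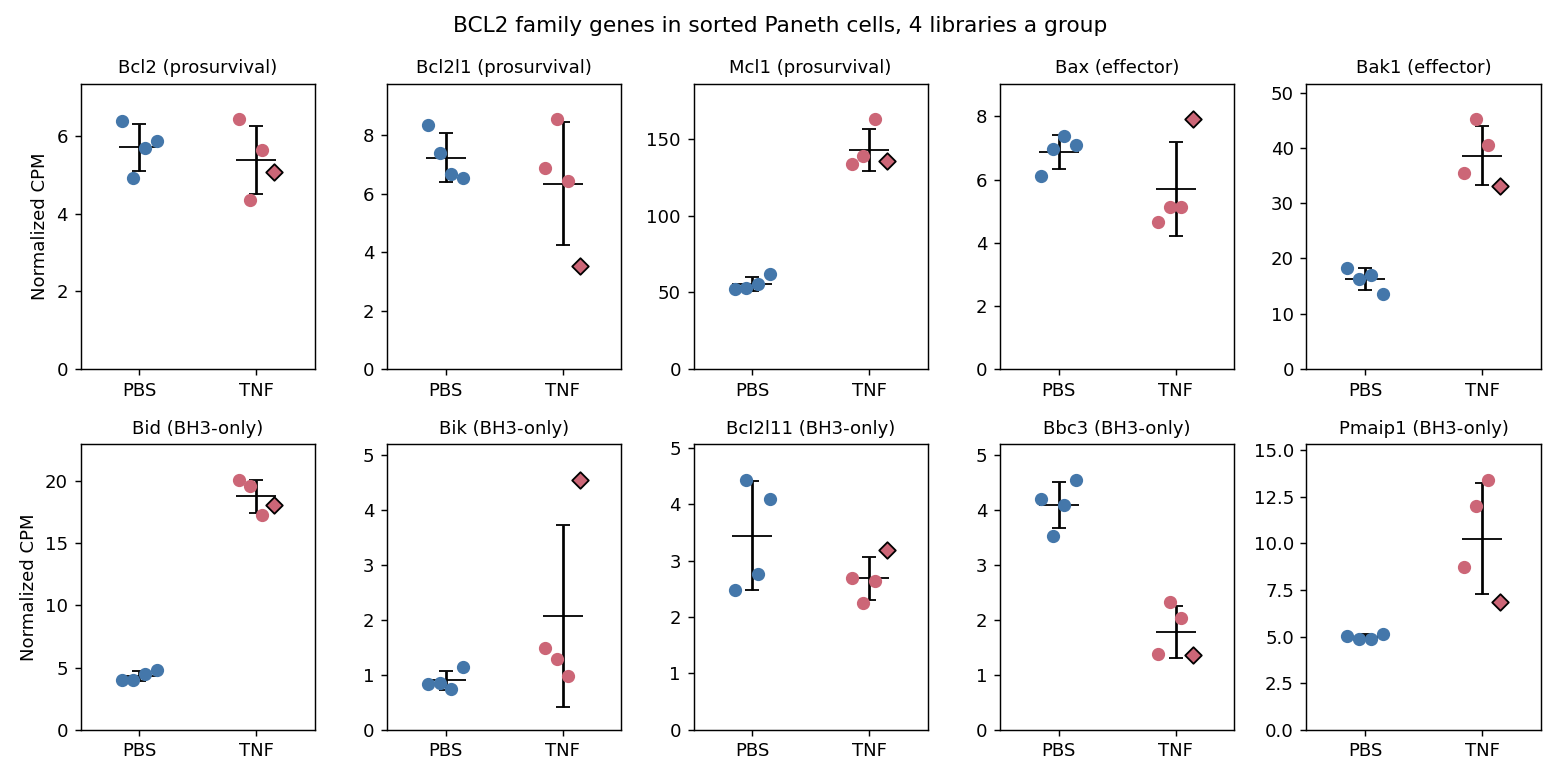
Normalized CPM (y axis, linear from 0, a scale of its own for each gene) of the 10 members in the 4 PBS (blue) and 4 TNF (red) libraries, with mean and SD as bars and TNF replicate 4 as an outlined diamond. The groups are apart for Mcl1, Bak1, Bid, Bbc3 and Pmaip1 and overlap for the other 5 genes, and TNF replicate 4 is far from the other TNF libraries for Bax (7.91) and Bik (4.55).

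Among the prosurvival genes, Mcl1 rose and the other 2 were not called. Mcl1 (ENSMUSG00000038612, chr3:95566026-95570487, plus strand) encodes a short-lived protein that is quickly lost when its synthesis stops. Its level in PBS replicates 1 to 4 was 51.9, 52.7, 55.4 and 61.8 normalized CPM, and in TNF replicates 1 to 4 it was 134, 139, 163 and 136. The lowest TNF library thus lay above the highest PBS library by more than the whole range of either group. The mean went from 55.5 ± 4.47 to 143 ± 13.2 (SD, n = 4 each), a log2 fold change of 1.37 with a standard error (SE) of 0.12 (2.58-fold, adjusted p = 8.69e-06). Of its 75-base stretches 100% occur in no other gene's transcripts.

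Bcl2 (ENSMUSG00000057329, chr1:106465908-106642060, minus strand), the founding member, was at 6.38, 4.91, 5.68 and 5.86 normalized CPM in PBS and at 6.43, 4.36, 5.65 and 5.07 in TNF. The groups overlapped over nearly their whole range. Its log2 fold change was -0.085 with a 95% interval of -0.40 to 0.23 (adjusted p = 0.694 by edgeR). Bcl2l1 (ENSMUSG00000007659, chr2:152622582-152673655, minus strand), which guards many epithelial cells, was at 8.34, 7.40, 6.66 and 6.54 in PBS and at 6.89, 8.55, 6.43 and 3.52 in TNF. Here 3 of the TNF libraries were in or near the PBS range and TNF replicate 4 was below it. The log2 fold change was -0.16 (95% interval -0.60 to 0.27, adjusted p = 0.577 by edgeR). It came to 0.024 (adjusted p = 0.903) once TNF replicate 4 was left out, so that its sign rests on that library. Both intervals leave room for modest changes in either direction. In Bcl2l1, 9.27% of exon bases, and in Bcl2 6.06%, lie opposite a long noncoding RNA gene.

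Of the effectors, Bak1 rose and Bax was not called over the 8 libraries. Bak1 (ENSMUSG00000057789, chr17:27238784-27247983, minus strand), which resides in the outer mitochondrial membrane, was at 18.2, 16.2, 17.0 and 13.5 normalized CPM in PBS and at 35.5, 45.2, 40.6 and 33.2 in TNF. Each TNF library was well above each PBS library. The mean went from 16.2 ± 2.00 to 38.6 ± 5.36 (SD, n = 4 each), a log2 fold change of 1.25 (SE 0.14, 2.39-fold, adjusted p = 4.10e-05 by edgeR). The opposite-strand genes Ggnbp1 and Gm50253 share 18.2% and 7.35% of the exon bases of Bak1, and the sources used here do not say whether the counting used strand.

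Bax (ENSMUSG00000003873, chr7:45111015-45116325, minus strand), the effector that moves from the cytosol to mitochondria, was at 6.11, 6.96, 7.37 and 7.09 normalized CPM in PBS and at 4.65, 5.12, 5.13 and 7.91 in TNF. On this scale replicates 1 to 3 of TNF lay below the PBS range, whereas TNF replicate 4 lay above it. In CPM with no TMM factor, TNF replicate 4 was instead the lowest, at 3.54. The other TNF libraries were at 5.10 to 5.45 there and the PBS libraries at 7.30 to 9.61. Over all libraries the log2 fold change was -0.29 (SE 0.18, 95% interval -0.64 to 0.052, adjusted p = 0.203 by edgeR) and Bax was not called. Without TNF replicate 4 the TNF mean was 4.97 ± 0.274 (SD, n = 3) and the log2 fold change was -0.45 (SE 0.13, adjusted p = 0.0116), a call as lower. The call for Bax therefore turned on a single library and its scaling. A gene on the same strand, Gm45808, shares 10.3% of the exon bases of Bax, and strand cannot tell their reads apart there.

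The ratio of the per-length level of Bak1 to that of Bax, taken within each library and so free of scaling, was 2.30, 1.79, 1.77 and 1.47 in PBS and 5.88, 6.79, 6.11 and 3.24 in TNF. All 4 TNF libraries, TNF replicate 4 included, were above the PBS libraries in this ratio, which was formed after the values had been seen and was not tested. Its size depends on the gene length used. Per length of the longest coding transcript it was 0.876 to 1.37 in PBS and 1.93 to 4.06 in TNF.

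Among the BH3-only genes, Bid had the largest rise of all members and Bbc3 was the only member called lower over all 8 libraries. Bid (ENSMUSG00000004446, chr6:120862525-120894171, minus strand), the substrate of Casp8 that links death receptors to mitochondria, was at 4.02, 3.98, 4.49 and 4.78 normalized CPM in PBS and at 20.1, 19.6, 17.3 and 18.1 in TNF. Both groups were tight and far apart. The mean went from 4.32 ± 0.384 to 18.8 ± 1.32 (SD, n = 4 each), a log2 fold change of 2.12 (SE 0.12, 4.35-fold, adjusted p = 5.54e-07 by edgeR). Of the exon bases of Bid, 31.2% lie opposite exons of Bcl2l13, a mitophagy receptor of the same family, and 70.0% of the 75-base stretches of its longest coding transcript are unique to it. Bcl2l13 itself was at 25.5 ± 0.770 in PBS and 31.8 ± 6.97 in TNF (log2 fold change 0.32, adjusted p = 0.121 by edgeR), and it was called as higher without TNF replicate 4 (0.48, adjusted p = 0.000665). Reads from this stretch cannot be assigned to a gene without strand.

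Bbc3 (ENSMUSG00000002083, chr7:16042318-16052130, plus strand), a potent killer induced by p53 and by loss of growth factors, was at 4.21, 3.53, 4.10 and 4.55 normalized CPM in PBS and at 1.38, 2.32, 2.04 and 1.37 in TNF. The highest TNF library lay below the lowest PBS library. The mean went from 4.10 ± 0.422 to 1.78 ± 0.475 (SD, n = 4 each), a log2 fold change of -1.18 (SE 0.21, a 2.27-fold lower level, adjusted p = 0.00112 by edgeR). These values rest on 95 to 201 counts in a PBS library and 16 to 67 in a TNF library. Within each library, the per-length level of Bid was 0.467 to 0.551 times that of Bbc3 in PBS and 4.14 to 7.11 times in TNF, again a description chosen after the values had been seen.

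Pmaip1 (ENSMUSG00000024521, chr18:66591604-66598636, plus strand), a BH3-only protein that binds Mcl1 with some preference, was at 5.04, 4.87, 4.85 and 5.16 normalized CPM in PBS and at 8.73, 12.0, 13.4 and 6.87 in TNF. The PBS libraries were nearly equal, and the TNF libraries were all higher but spread over a wide range, with TNF replicate 4 the lowest. The mean went from 4.98 ± 0.147 to 10.3 ± 2.98 (SD, n = 4 each), a log2 fold change of 1.05 (SE 0.20, 2.07-fold, adjusted p = 0.00142 by edgeR).

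Bcl2l11 (ENSMUSG00000027381, chr2:127967958-128004476, plus strand), which encodes an activator that binds every prosurvival member, was at 2.47, 4.43, 2.76 and 4.10 normalized CPM in PBS and at 2.7, 2.25, 2.63 and 3.18 in TNF. PBS replicates 2 and 4 were above the TNF range and the other 2 were within it. The log2 fold change was -0.37 (95% interval -0.82 to 0.078, adjusted p = 0.217 by edgeR). Bik (ENSMUSG00000016758, chr15:83411056-83428836, plus strand), a BH3-only protein found largely at the endoplasmic reticulum, was at 0.831, 0.856, 0.749 and 1.15 normalized CPM in PBS and at 1.49, 1.28, 0.983 and 4.55 in TNF. It was the member with the lowest level in PBS, with 19 to 53 counts in a library over both groups, and TNF replicate 4 was about 3 times as high as the next TNF library. The log2 fold change was 1.09 (SE 0.45, 95% interval 0.20 to 1.98, adjusted p = 0.0748 by edgeR), and 0.48 (adjusted p = 0.162) without TNF replicate 4. Bik was called by DESeq2 (log2 fold change 1.12, adjusted p = 0.0283) and by edgeR with no filter beyond 1 count (1.02, adjusted p = 0.0367), so that its call depended on the tool and the filter.

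**Figure D2:**
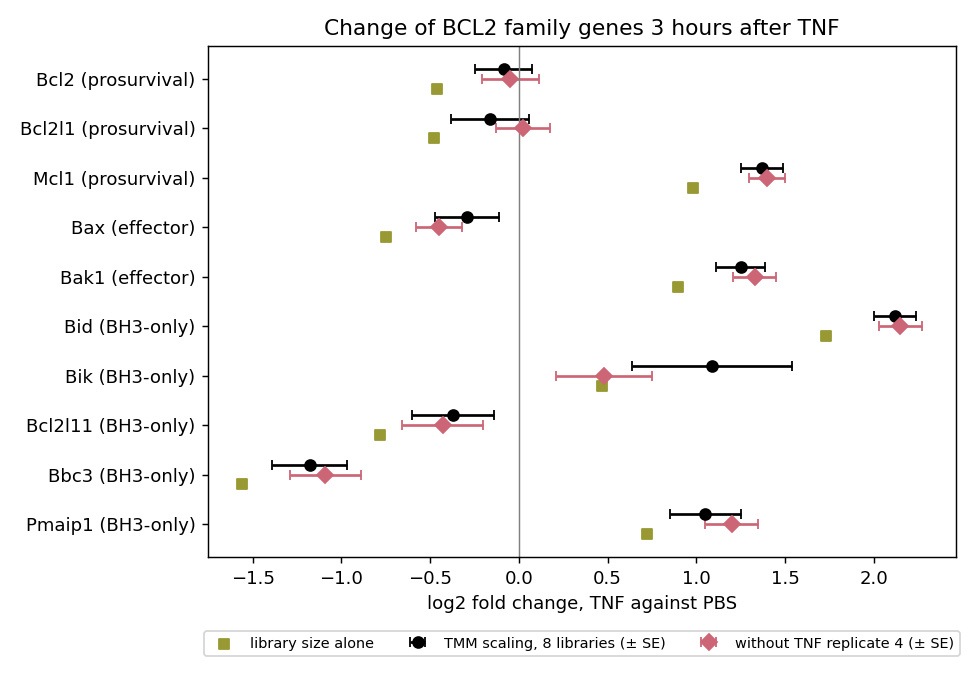
Log2 fold change of TNF against PBS (x axis) of each member with TMM scaling over 8 libraries (black circles, bars are SE), without TNF replicate 4 (red diamonds, bars are SE) and with library size as the only scaling (olive squares). Mcl1, Bak1, Bid and Pmaip1 lie right of 0 and Bbc3 left of 0 in all 3 settings, library size alone moves each member to the left, and Bik drops from 1.09 to 0.48 and 0.47.

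The scaling of TNF replicate 4 bears on these levels. In CPM of the whole library, with no TMM factor, this library was at 61.0 for Mcl1, where the PBS libraries were at 55.3 to 83.8, and at 14.9 for Bak1, where they were at 17.0 to 22.9. TNF replicates 1 to 3 were at 139 to 173 for Mcl1 and 39.2 to 44.9 for Bak1 on the same scale, above each PBS library. With library size alone in the test, the median of all genes moved to -0.38 and Bak1 (0.90, adjusted p = 0.0659) and Pmaip1 (0.72, adjusted p = 0.180) were no longer called, while Mcl1 (0.98, adjusted p = 0.0397), Bid (1.73, adjusted p = 0.00177) and Bbc3 (-1.56, adjusted p = 0.00791) were and Bax (-0.75, adjusted p = 0.0487) was called as lower. Relative to the median of all genes, the log2 fold changes were close under both scalings. They were 1.36 and 1.34 for Mcl1, 1.28 and 1.23 for Bak1, 2.11 and 2.09 for Bid, 1.10 and 1.03 for Pmaip1 and -1.18 and -1.21 for Bbc3 (library size alone first). A change of scaling shifts all genes by nearly the same amount, which subtracting the median removes. This closeness was therefore largely fixed in advance and is no check of the calls. Without TNF replicate 4, the 5 members called over 8 libraries were called in the same direction, with log2 fold changes of 1.40 for Mcl1, 1.33 for Bak1, 2.15 for Bid, 1.20 for Pmaip1 and -1.09 for Bbc3.

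Levels of different genes were compared as normalized CPM per kb of exon. In PBS the order was Mcl1 (15.9 ± 1.28, SD, n = 4), Bak1 (6.73 ± 0.833), Bax (3.71 ± 0.291), Pmaip1 (1.82 ± 0.0539), Bcl2l1 (1.41 ± 0.161), Bbc3 (0.856 ± 0.0881), Bcl2 (0.620 ± 0.0662), Bid (0.441 ± 0.0392), Bcl2l11 (0.340 ± 0.0958) and Bik (0.171 ± 0.0338). Neighbours in this order did not overlap over the 4 libraries, except Bid and Bcl2l11. Mcl1 was thus the leading member, at percentile 94.4 of all tested genes on this scale, and Bik was at percentile 8.02. When the length of the longest coding transcript was used, Bcl2l1 passed Pmaip1 and Bid passed Bcl2.

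In TNF the order of the per-length levels was Mcl1 (41.0 ± 3.79, SD, n = 4), Bak1 (16.0 ± 2.23), Pmaip1 (3.75 ± 1.09), Bax (3.07 ± 0.801), Bid (1.92 ± 0.135), Bcl2l1 (1.24 ± 0.407), Bcl2 (0.584 ± 0.0951), Bik (0.396 ± 0.317), Bbc3 (0.371 ± 0.0992) and Bcl2l11 (0.266 ± 0.0377). Pmaip1 and Bax overlapped, as did each pair of neighbours from Bcl2l1 down. The place of Bik above Bbc3 rested on TNF replicate 4, where Bik was at 0.869. In TNF replicates 1 to 3 Bik was at 0.284, 0.244 and 0.188 and Bbc3 at 0.289, 0.484 and 0.425. Bid went from rank 8 to rank 5 and Bbc3 from rank 6 to rank 9, or to rank 8 when plain CPM or the length of the longest coding transcript was used. By that length Bid went from rank 7 to rank 4, and Bax (5.18) and Bid (4.12) lay above Pmaip1 (3.75) in TNF. Of the summed per-length level of the 10 members within a library, Mcl1 alone made up 47.1% to 53.7% in PBS and 56.3% to 61.6% in TNF. The 3 prosurvival genes made up 54.4% to 59.5% and 59.3% to 64.1%, the 2 effectors 28.5% to 34.4% and 26.0% to 30.3%, and the 5 BH3-only genes 10.8% to 12.0% and 9.10% to 10.4%. These shares are independent of library scaling but depend on the gene length used, here that of all exons. They describe mRNA, not protein.

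**Figure D3:**
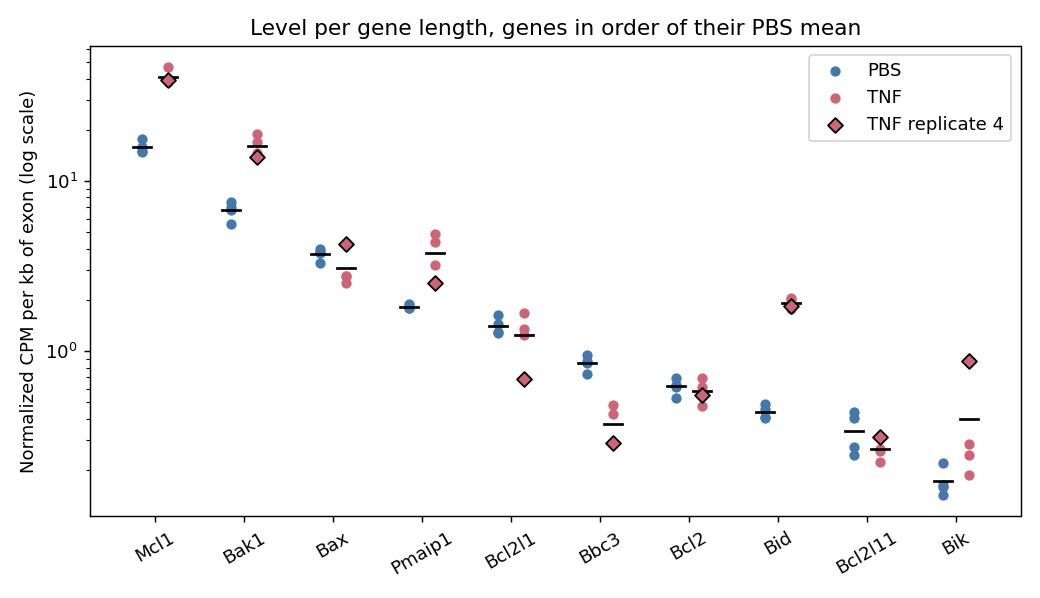
Normalized CPM per kb of exon (y axis, log scale) of each member in the 4 PBS (blue) and 4 TNF (red) libraries, with lines at the group means, genes ordered by their PBS mean and TNF replicate 4 as an outlined diamond. Mcl1 is the highest member in both groups (means 15.9 and 41.0), and Bid rises from 0.441 to 1.92.

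The rest of the family and the steps around it were read from the same test. These lists were named for their known roles and hold few genes, and each is described by its counts and median beside the 43.0% called and the median of 0.026 over all genes. Of the 6 further prosurvival genes, only Bcl2l2 (BCL-W) passed the filter, and it fell from 33.6 ± 7.53 to 23.0 ± 1.73 normalized CPM (log2 fold change -0.55, adjusted p = 0.0143 by edgeR). Bcl2l10, Bcl2a1a, Bcl2a1b and Bcl2a1c had 0 counts in all 8 libraries, although the A1 genes are known NF-kB targets in blood cells. The A1 genes are near-identical copies, and how reads that match several of them were counted is not known, so that their counts are uncertain.

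Among 9 tested genes of 12 further BH3-only and effector genes, 1 rose and 2 fell (median log2 fold change -0.33). Bok, another pore former, rose from 3.58 ± 1.16 to 19.4 ± 2.44 normalized CPM (log2 fold change 2.45, adjusted p = 1.43e-05 by edgeR). Bmf, a BH3-only gene linked to loss of attachment, fell from 13.5 ± 2.96 to 2.76 ± 0.517 (-2.30, adjusted p = 1.08e-05). Bcl2l14 fell narrowly (-0.38, adjusted p = 0.0472), and its call was lost when any of 5 single libraries was left out. Without TNF replicate 4 all 9 were called, 3 higher and 6 lower, so the count for this list depended on that library. Over all genes, 6923 of 13726 tested were called in that setting.

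Downstream of the members, 4 of 13 genes of the mitochondrial death machinery rose and 2 fell (median 0.25). Apaf1, the scaffold of the apoptosome, rose from 14.2 ± 2.28 to 89.4 ± 14.2 normalized CPM (log2 fold change 2.66, adjusted p = 7.62e-07 by edgeR). Its partner Casp9 fell from 9.42 ± 0.904 to 4.32 ± 0.274 (-1.13, adjusted p = 6.10e-05). Cycs, which encodes cytochrome c (log2 fold change 1.14), rose and Casp6 (-0.56) fell. Of the 9 inhibitor of apoptosis genes, 1 rose and 1 fell (median 0.062). Birc3 (cIAP2), a ubiquitin ligase of TNF receptor complexes, rose from 8.09 ± 1.92 to 191 ± 24.4 (4.56, adjusted p = 1.54e-07 by edgeR). Birc5 (survivin), a gene of dividing cells, fell (-0.58, adjusted p = 0.0179), a call lost without PBS replicate 2 (adjusted p = 0.0550) or TNF replicate 3 (adjusted p = 0.0512).

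Upstream of Bid, 6 of the 8 genes that carry or restrain death receptor signals rose and none fell (median 0.86). They include Cflar, which encodes an inhibitor of Casp8 at these receptors and rose from 23.5 ± 2.95 to 34.8 ± 4.62 normalized CPM (log2 fold change 0.56, adjusted p = 0.00589 by edgeR). Fas rose from 3.62 ± 0.854 to 34.5 ± 13.5 normalized CPM (log2 fold change 3.24, adjusted p = 7.20e-06 by edgeR), Casp8 from 21.1 ± 0.768 to 76.4 ± 6.30 (1.85, adjusted p = 5.39e-07) and the kinase Ripk1 from 20.9 ± 4.31 to 70.7 ± 10.4 (1.76, adjusted p = 1.34e-05). The adaptors Tradd (0.14, adjusted p = 0.435) and Fadd (0.22, adjusted p = 0.284) were not called. Of 14 tested genes for turnover and chaperoning of BCL2 proteins, 4 rose and 3 fell (median 0.23). The rises, in log2 fold change, were of Bag3 (1.25), Ywhaz (1.09), the ubiquitin ligase Marchf5 (0.74) and Huwe1 (0.71), a ubiquitin ligase of Mcl1, and the falls were of Fbxo10 (-2.48), Btrc (-0.71) and Bag4 (-0.58).

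Of 13 tested transcription factors known to act on BCL2 family genes, 6 rose and 5 fell (median 0.073). The NF-kB subunits Rel (log2 fold change 4.48), Rela (2.31) and Nfkb1 (2.02) rose, as did Stat3 (2.02), Trp53 (0.76), which encodes p53, and Myc (0.66). The falls were of Foxo4 (-0.72), Ddit3 (-0.68), E2f1 (-0.66), Foxo1 (-0.42) and Foxo3 (-0.35), all log2 fold changes. Foxo3, which can drive Bbc3 and Bcl2l11, went from 23.4 ± 3.07 to 18.4 ± 1.38 normalized CPM (adjusted p = 0.0377 by edgeR). Its call was lost when any of 5 single libraries was left out, and that of Foxo1 without PBS replicate 3 (adjusted p = 0.0595) or TNF replicate 3 (adjusted p = 0.0574). Of 16 p53 targets that are not members, 3 rose and 6 fell (median -0.26). Aen (log2 fold change 0.73), Mdm2 (0.69) and Perp (0.52) rose, and Sesn1 (-1.97), Eda2r (-1.91), Sesn2 (-1.66), Trp53inp1 (-1.65), Phlda3 (-1.37) and Ccng1 (-0.61, not called when PBS replicate 2, PBS replicate 3 or TNF replicate 3 was left out) fell, while Cdkn1a was not called (-0.21, adjusted p = 0.374 by edgeR). With library size alone as the scaling, the rises of Cycs, Cflar, Bag3, Ywhaz, Marchf5, Huwe1, Trp53, Myc, Aen, Mdm2 and Perp and the falls of Foxo1, Foxo3, Foxo4 and E2f1 were not called.

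**Figure D4:**
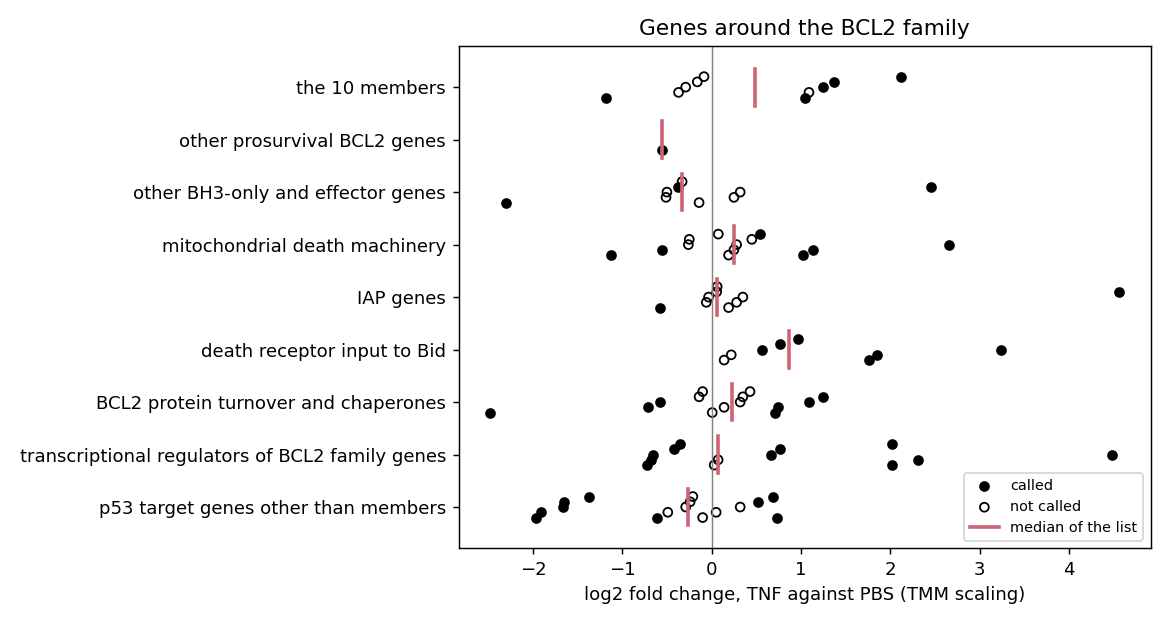
Log2 fold change of TNF against PBS (x axis, TMM scaling) of the tested genes of the members and each pathway list, 1 row a list, filled where called and open where not, with the list's median as a red line. Among the lists plotted, the genes upstream of Bid have the highest median (0.86) and no called gene left of 0, and the members (median 0.48) lie on both sides of 0.

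The summed level of each list of markers of other cell types was low beside that of the Paneth markers, and some of these markers moved with TNF. Of 12 immune markers, 6 were at 0 counts in all libraries (Cd3e, Cd3g, Cd8a, Cd79a, Itgax and S100a8). The summed level was 9.98 to 14.8 normalized CPM in PBS and 14.5 to 72.5 in TNF (14.5 to 17.6 without TNF replicate 4, where Lyz2 was at 64.4). Lyz2 made up most of this sum, at 9.15 ± 2.37 in PBS, where the other lysozyme gene Lyz1 was at 141683 ± 24838. Whether reads of Lyz1 were counted for Lyz2 is not known. Among the 4 tested immune markers, Ms4a1 and Cd52 rose (log2 fold changes 2.94 and 1.69). Of 8 stroma markers, Col1a2 and Col3a1 were at 0 counts, Vim alone was tested and rose (2.05), and the sum was 0.260 to 0.453 in PBS and 1.23 to 1.80 in TNF. Of 7 tested enteroendocrine and tuft cell markers, Chga (1.95), Chgb (1.95) and Gcg (1.13) rose, with a sum of 22.2 to 39.8 in PBS and 40.4 to 114 in TNF (40.4 to 49.4 without TNF replicate 4). Of 7 goblet cell markers, Muc2 (1.27) and Spdef (0.41) rose and Fcgbp (-1.53) and Clca1 (-2.55, with 554 normalized CPM in PBS replicate 1 and 41.1 to 44.0 in the other PBS libraries) fell (sum 3683 to 5942 and 6395 to 7631). Of 8 enterocyte markers Apoa4 (-3.94) and Rbp2 (-2.04) fell (29.7 to 44.2 and 15.7 to 59.9, or 15.7 to 20.2 in TNF without TNF replicate 4), and of 8 stem and cycling cell markers 4 fell, led by Ascl2 (-2.13), Axin2 (-1.53) and Lgr5 (-1.21) (1572 to 2449 and 1388 to 1962). Of 10 Paneth markers, Pla2g2a (1.01) and Nupr1 (0.81) rose. Without TNF replicate 4, Gcg was not called (0.81, adjusted p = 0.0830 by edgeR), Csf1r (0.56) and Neurod1 (1.29) were called higher, and Agr2 (-1.28), Fabp2 (-0.89) and Sis (-0.92) were called lower. The part of these cells in the values of the BCL2 family members was not tested.

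Among 8492 tested genes with a symbol and a mean of at least 5 normalized CPM, those whose centred log2 levels over the 8 libraries were nearest to Bid were Arel1 (root mean square difference 0.12), Mapkapk3 (0.136) and Prr13 (0.139), against a median of 1.04 over these genes. Arel1, a ubiquitin ligase that acts on antagonists of the inhibitor of apoptosis proteins, went from 26.1 ± 2.73 to 114 ± 19.9 normalized CPM. The genes nearest to Bbc3 were Cln6 (0.153), D630039A03Rik (0.161) and Ttyh2 (0.162), against a median of 0.742. Cln6, a membrane protein of the endoplasmic reticulum, went from 73.8 ± 3.26 to 32.9 ± 5.90. The likeness is over 8 libraries in 2 groups and is a description only.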

How the data were processed

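RNA was obtained from sorted Paneth cells and sequenced with a stranded mRNA kit. The authors deposited raw counts per Ensembl gene ID, 1 column a library, with no normalization. The submitters' processing notes name FastQC 0.12, STAR 2.7.10a, DESeq2 and the mm39 (GRCm39) build. The counter, its annotation, its use of strand and its handling of reads with several matches do not appear in the sources used here. Symbols, coordinates and exon lengths came from GENCODE M39 (54749 of 55414 IDs matched). Genes were filtered with filterByExpr and tested with edgeR 4.0.16 in R 4.3.3 (TMM, quasi-likelihood F test, no covariate), with an adjusted p under 0.05 as the threshold. Intervals are 1.96 SE, a normal approximation that is somewhat narrower than the distribution used by the test would give. The alternatives were RLE scaling, library size alone, TMM without Defa genes and Lyz1, filters of 1 count or of 1 CPM in 4 libraries, DESeq2 1.42.0, limma-voom (limma 3.58.1), a block on the replicate number, a threshold of 0.01 and each library left out. The procedure was tested on simulated data. No 2 libraries of the same group were alike within sampling noise (lowest chi-square per degree of freedom 8.77 over the 12 pairs within groups). The members and lists were chosen with earlier results of these data known. Named list genes were the 3 largest called rises and falls of each list, to which Huwe1, Stat3, Trp53, Myc, Foxo1, Foxo3, Trp53inp1, Phlda3, Ccng1, Bcl2l13, Tradd, Fadd, Cflar and Cdkn1a were added with their values seen. Some items of these lists are not reported here. From marker lists, called genes were named, or the 3 largest changes where over 5 were called. From the stem and cycling list only 3 of 4 were. The genes nearest to Bid and Bbc3 had the smallest root mean square difference in log2 normalized CPM (prior count 2), centred on each gene's mean.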

Additional observations from a re-analysis of the deposited data

Results flagged for a closer look

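Of 20 sets of 4 libraries (10 members in 2 groups), 2 held a library whose gap to the nearest other, as a share of the range, was above Dixon's critical value at the 95% level. By construction that value is passed by about 1 in 20 independent sets by chance, and these sets share the same 8 libraries. Both were in TNF replicate 4. Bax was at 7.91 normalized CPM there and at 4.65 to 5.13 in the other TNF libraries, a gap of 0.854 of the whole range. Bik was at 4.55 there and at 0.983 to 1.49 in the others, a gap of 0.858 of the range. This library also had the TMM factor of 0.448. In CPM with no TMM factor, Bax was at 3.54 there and at 5.10 to 5.45 in the other TNF libraries. Bik was at 2.04 there and at 1.04 to 1.65 in the others. For Bax, TNF replicate 4 was thus the highest TNF library with the factor and the lowest without it. For Bik it was the highest on both scales. The gaps in CPM with no TMM factor were not tested against Dixon's critical value.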

How the results depend on the processing

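Over the alternatives, 162 of 170 log2 fold changes of members kept their direction and their side of the threshold, and 733 of 782 of named list genes did (46 fell below the threshold, 1 passed it and 2 reversed). Of the members Bcl2l1 alone reversed, to 0.024 without TNF replicate 4, and ranged from -0.36 to 0.024 over the libraries left out. The number of members called was 5 to 6 when each library was left out (4 to 5 higher, 1 to 2 lower, with Bax the second lower one without TNF replicate 4 and Bik the fifth higher one without TNF replicate 3). Over all genes 4757 to 6923 were called when each library was left out (2469 to 3657 higher, 2288 to 3266 lower), and 1691 were lower at an adjusted p under 0.01. With library size alone, 3182 genes were called, of which 757 were higher (23.8%, against 54.3% with TMM), and of the members 2 were higher and 2 lower. Tradd (-0.30) and Fadd (-0.19), which were not called, changed sign there. The same setting called 5 of the further BH3-only and effector genes and 3 each of the mitochondrial death machinery, the death receptor genes and the turnover genes, and 5 of the transcription factors. The further BH3-only and effector count was also 5 with DESeq2, limma-voom and no filter beyond 1 count, and ran from 2 to 9 when each library was left out. At an adjusted p under 0.01, 0 further prosurvival genes, 1 inhibitor of apoptosis gene and 7 transcription factors were called. With each library left out, the inhibitor of apoptosis count was 1 to 3 (1 without PBS replicate 2 or TNF replicate 3). Per length of the longest coding transcript, 6 of 10 members kept their rank in PBS. Their causes were not tested.

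The replicate number was not shown to pair the libraries, since deviations of same-numbered libraries correlated at 0.0229, 0.0663, -0.144 and -0.126, and only replicates 1 and 2 of PBS correlated best with their own number. With the replicate number as a block, 5087 genes and 5 members were called, and of the named list genes Bcl2l14, Foxo1, Foxo3 and Ccng1 lost their calls. Precision was limited for Bik and Bbc3, which had as few as 19 and 16 counts in a library.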
